A study of Mus musculus with 12 samples.

Results

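Insulin-like growth factor (IGF) signalling genes were followed across 12 mouse skin cell samples, each hybridised to 1 one-colour Agilent array. The set comprised 9 of the 34763 gene names on the array: the ligands Igf1 and Igf2, the receptor Igf1r, and the secreted binding proteins Igfbp2, Igfbp3, Igfbp4, Igfbp5, Igfbp6 and Igfbp7. Members are defined by gene name, and each gene was read from the probe with its highest mean level over the 12 arrays.

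Each of the 12 groups held 1 array. Hair follicle stem cells (HFSCs) came from 4 mouse types, each once 3 days after depilation by hand (plucked) and once unplucked. Aged mice were wild-type C57BL/6 of at least 22 months, and young mice were wild-type C57BL/6 of 8 weeks. The arrays labelled Col17a1 cKO came from mice of 12 weeks with a conditional knockout under the K14 promoter, for which the labels name no strain. The control mice were wild-type C57BL/6 of 12 weeks, and cKO and control mice had both received 2 mg of tamoxifen for 5 days. Interfollicular epidermis (IFE) and total epidermis were taken from the aged and young mice, without plucking. By flow cytometry, HFSCs were the sorted cells with high CD34, high ITGA6 and no SCA1, and IFE cells those with high ITGA6 and high SCA1. The K14 promoter is active in basal keratinocytes of both follicle and epidermis. The labels do not say how many animals gave a sample, nor whether samples came from separate animals, so the p-values measure only the spread between these samples. With 1 array a group there is no spread within a group. The spread used is how far matched arrays disagree across ages, populations or mouse types, moderated by limma over all genes. The fits had 2 or 3 residual degrees of freedom.

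IGF1 and IGF2 are secreted peptides that bind the IGF1 receptor, a tyrosine kinase acting through insulin receptor substrates, PI3K and AKT. The binding proteins hold the ligands outside the cell. They can keep the ligands from the receptor or, when cleaved by proteases such as PAPPA, release them. In skin, IGF1 is made largely by dermal fibroblasts, including those of the dermal papilla, and acts on keratinocytes and on hair growth.

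Levels are log2 processed intensity minus the 75th percentile of the same array, so a level of 0 stands at that percentile. The scanner software marked 49.7% to 65.0% of spots as well above background, depending on the array. Median correlations with the other arrays were lowest for the unplucked cKO (0.893) and unplucked control (0.888) HFSC arrays. The sort could be read in its own markers: Cd34 was at -5.98 and -3.04 in aged and young IFE, against 5.62 and 6.46 in aged and young HFSCs. Ly6a, the gene of SCA1, was at 3.69 and 4.37 in aged and young IFE, against -1.77 and 0.30 in aged and young HFSCs. The other listed IFE markers did not all follow. Krt1, Krt10 and Krt77 were higher in IFE than in HFSCs at both ages. Lor was lower, at 3.62 and 1.80 in aged and young IFE, against 4.67 and 5.03 in aged and young HFSCs. Ivl was lower too, at -2.07 and -1.97 in aged and young IFE, against -1.45 and -0.78 in aged and young HFSCs. Col17a1, the deleted gene, was at 7.0 and 5.79 on the unplucked and plucked cKO arrays, against 7.31 and 6.22 on the control arrays. Its 1 probe remained bright in the arrays labelled cKO, and the sources used here do not give whether it lies in the deleted stretch, so it does not check the label.

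The 9 members had 15 probes, of which 13 matched the gene symbol by accession; the Igf1 probe used was not among the 13. Probe positions below come from the array files (mm9), and their place in exons or untranslated regions was not analysed here. The Igf1 probe lies at chr10:87378456-87378515 (plus strand) and the Igf2 probe at chr7:149839661-149839720 (minus strand). The Igf1r probe lies at chr7:75378461-75378520 (plus strand), and the Igfbp2 and Igfbp5 probes lie 6092 bases apart on chromosome 1, at chr1:72898677-72898736 (plus strand) and chr1:72904829-72904888 (minus strand). Further probes lie at chr11:7106594-7106653 (Igfbp3, minus strand), chr11:98913334-98913393 (Igfbp4, plus strand) and chr15:101979852-101979911 (Igfbp6, plus strand). The first 30 of the 60 bases are given for 5 of the probes on which the results turn, to fix which transcript part was read.
Igf1: aaccattaaaaacatgccaccaagaccttc
Igfbp3: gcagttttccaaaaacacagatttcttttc
Igfbp4: gagaagagaaacctcattcttggagtgaga
Igfbp5: cacatcacatattactgtagctctctatag
Igfbp6: ctgtcacccttgggcctttacacagctagt
The Igfbp2 probe is shown whole because it reads in its first frame to a stop codon at its end, in capitals.
Igfbp2: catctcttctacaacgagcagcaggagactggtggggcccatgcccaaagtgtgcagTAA

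Promoter sequence is shown for the 4 binding proteins that were high together in HFSCs and for Igfbp3, which was low there. Each stretch is the 250 bases before the RefSeq start, on GRCm38.p6 and on the strand of the gene. Capitals mark TATAAA (the TATA box) or GGGCGG (the GC box) on either strand.
Igfbp4, chr11:99040994-99041243, plus strand: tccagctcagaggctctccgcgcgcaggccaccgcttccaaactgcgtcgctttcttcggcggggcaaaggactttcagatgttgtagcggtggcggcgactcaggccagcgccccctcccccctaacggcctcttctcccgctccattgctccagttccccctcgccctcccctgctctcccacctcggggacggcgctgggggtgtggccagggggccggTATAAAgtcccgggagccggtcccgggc
Igfbp5, chr1:72874866-72875115, minus strand: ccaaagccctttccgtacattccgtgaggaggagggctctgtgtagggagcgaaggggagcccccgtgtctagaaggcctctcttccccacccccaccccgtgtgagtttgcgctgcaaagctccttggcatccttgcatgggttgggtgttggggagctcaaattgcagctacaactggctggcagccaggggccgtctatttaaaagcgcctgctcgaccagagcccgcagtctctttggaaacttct
Igfbp6, chr15:102143936-102144185, plus strand: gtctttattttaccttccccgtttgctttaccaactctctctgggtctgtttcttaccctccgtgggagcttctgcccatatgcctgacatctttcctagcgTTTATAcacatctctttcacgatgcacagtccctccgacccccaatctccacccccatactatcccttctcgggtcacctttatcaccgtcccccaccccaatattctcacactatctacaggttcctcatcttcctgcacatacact
Igfbp7, chr5:77408046-77408295, minus strand: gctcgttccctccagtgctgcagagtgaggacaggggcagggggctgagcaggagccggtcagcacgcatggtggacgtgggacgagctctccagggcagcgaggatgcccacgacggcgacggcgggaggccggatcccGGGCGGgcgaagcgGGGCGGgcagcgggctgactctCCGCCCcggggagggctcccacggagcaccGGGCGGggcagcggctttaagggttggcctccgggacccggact
Igfbp3, chr11:7213924-7214173, minus strand: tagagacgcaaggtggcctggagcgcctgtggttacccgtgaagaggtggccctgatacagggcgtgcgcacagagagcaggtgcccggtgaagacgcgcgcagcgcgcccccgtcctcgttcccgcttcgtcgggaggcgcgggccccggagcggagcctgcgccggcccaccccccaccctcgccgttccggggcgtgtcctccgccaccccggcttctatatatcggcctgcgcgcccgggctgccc
TATAAA was found in Igfbp4, 28 bases before the start, and in Igfbp6 on the other strand, 148 bases before the start; 12.4% of 32851 promoters of this length held it. GGGCGG was found only in Igfbp7 among the 5, at 4 places, and 32.7% of all promoters held it. Neither GTAAACA (forkhead motif, in 3.17% of promoters) nor TGACTCA (AP-1 motif, in 4.46%) was found in these 5 windows. No matches overlapped, and a match is a description of letters only. No one motif was found in all 4 promoters of the genes high in HFSCs.

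**Figure D1:**
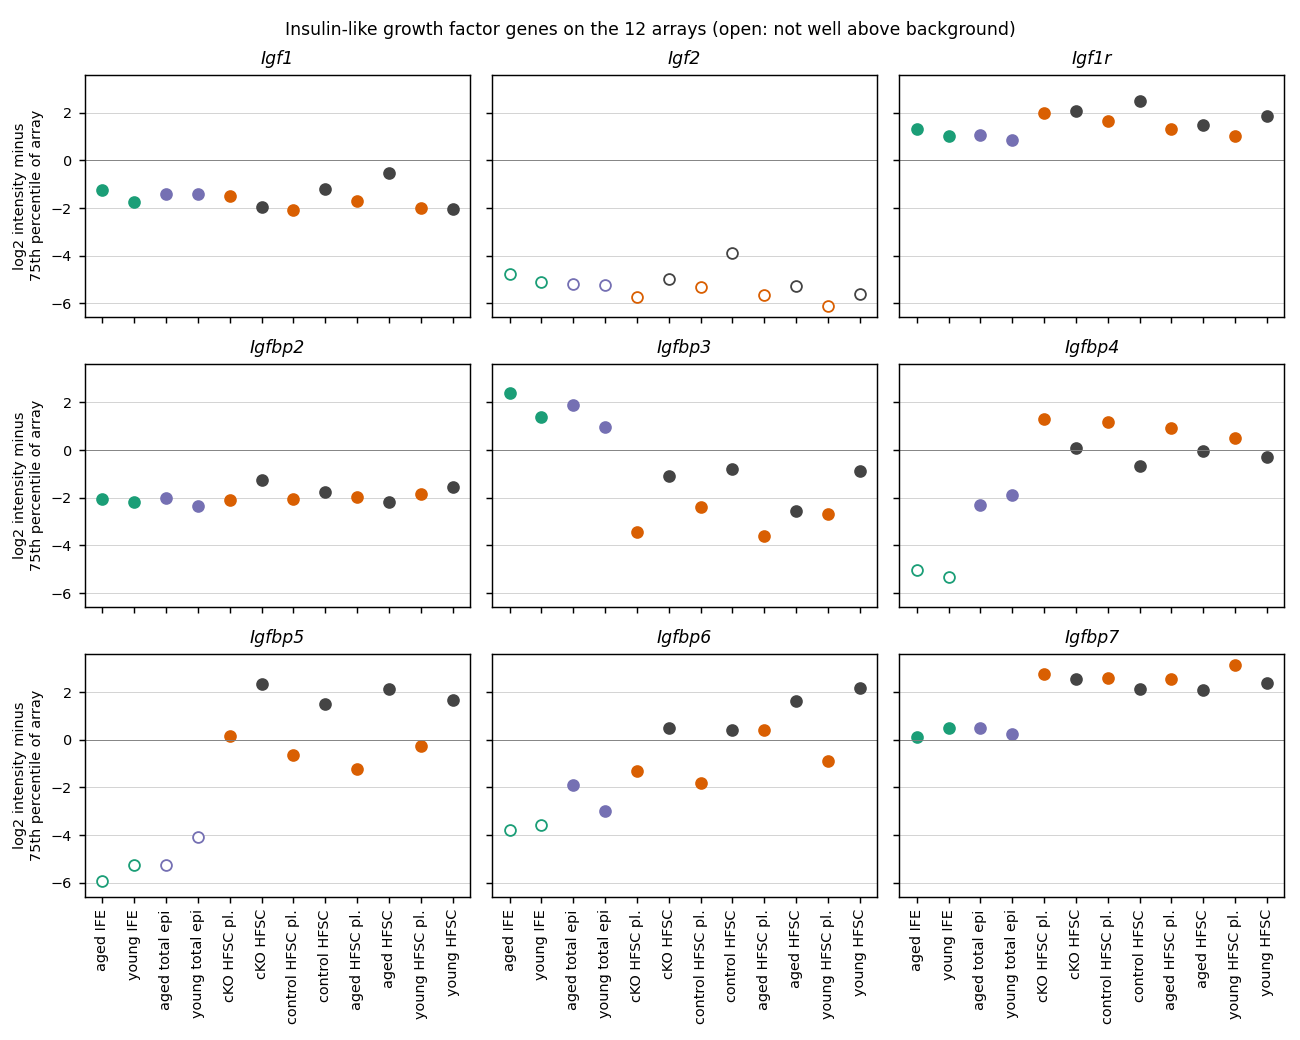
Levels of the 9 genes on the 12 arrays (y axis, log2 intensity minus the 75th percentile of the array; 1 point an array, coloured by population, open where not well above background). Igf2 was open on every array, Igfbp4, Igfbp5 and Igfbp6 were open in IFE, Igfbp5 also in total epidermis, and Igfbp3 was above 0 in IFE and total epidermis alone.

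Of the ligands, Igf2, the growth factor best known from fetal growth, was not well above background on any of the 12 arrays and was not tested. Its measured levels lay between -6.12 and -3.88, so no difference in Igf2 is read from these arrays. Igf1 was well above background on all 12 arrays, between -2.09 in plucked control and -0.52 in unplucked aged HFSCs. A second bright Igf1 probe followed it with a Pearson r of 0.787 over the 12 arrays, and the other 3 Igf1 probes were not well above background on at least 11 arrays. Igf1 varied 2.97-fold over all samples.

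Igf1r, the receptor, was well above background on all 12 arrays, and the array with the highest level was the unplucked control HFSC array (2.51). Its lowest level was 0.86, in young total epidermis. In IFE it was at 1.33 (aged) and 1.02 (young), and in total epidermis at 1.05 (aged) and 0.86 (young). Unplucked HFSCs of the same mice were at 1.5 (aged) and 1.88 (young), so the groups did not overlap, but the difference did not pass the test in either comparison.

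Hair follicle stem cells had far more signal than interfollicular epidermis for 4 of the 9 members, Igfbp4, Igfbp5, Igfbp6 and Igfbp7. Igfbp5, which binds IGFs and also sits in the matrix, was at least 52.3-fold lower in IFE. Igfbp6, a binding protein that prefers IGF2, was at least 47.9-fold lower, and Igfbp4, which PAPPA cleaves, at least 12.7-fold lower. Igfbp7, a relative of low IGF affinity, was 3.78-fold lower. Igfbp3, the main carrier of IGFs in blood, had the opposite pattern without passing the test. Igfbp5 was well above background on no array of this fit outside HFSCs, so it entered the test through them alone and had to differ, and no p is given for it. Of the 7 other members tested, 3 were called lower, against 2.64% of 23961 genes called lower over all (2.1% higher, 4.73% in either direction). The groups of 5 of these 7 members did not overlap, beside 46.4% of genes. The test was limma's moderated test with age as a term, over 6 unplucked arrays, with Benjamini-Hochberg adjusted p under 0.05.

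Igfbp5 was at -5.94 and -5.27 in aged and young IFE, neither well above background, against 2.14 and 1.66 in aged and young HFSCs. Total epidermis, also not well above background, was at -5.25 (aged) and -4.07 (young). There Igfbp5 was at least 62.2-fold lower than in HFSCs. On each dim array the bounds use the lowest signal well above background or the level of the gene itself, whichever was higher. For Igfbp6 in IFE its own level was the higher on both arrays, so its bound equals its measured difference.

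Igfbp6 was at -3.78 and -3.58 in aged and young IFE, neither well above background, against 1.63 and 2.17 in aged and young HFSCs (log2 -5.58 ± 0.47, SE, n = 2 arrays each, limma adjusted p = 0.013). In total epidermis it was well above background, at -1.91 (aged) and -2.97 (young), and 20.3-fold lower than in HFSCs (log2 -4.34 ± 0.47, limma adjusted p = 0.0272). HFSCs were highest and IFE lowest at both ages, and the step between IFE and total epidermis was not tested.

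Igfbp4 was at -5.05 and -5.33 in aged and young IFE, neither well above background, against -0.02 and -0.27 in aged and young HFSCs (log2 -5.05 ± 0.32, limma adjusted p = 0.00998). In total epidermis it was at -2.30 (aged) and -1.90 (young), and that difference from HFSCs, -1.95 ± 0.32, missed the threshold (limma adjusted p = 0.052). Igfbp7 was at 0.10 and 0.52 in aged and young IFE, against 2.08 and 2.38 in aged and young HFSCs (log2 -1.92 ± 0.31, limma adjusted p = 0.0476). This call was lost under median scaling (limma adjusted p = 0.0586) and without the filter on dim probes (0.0982). In total epidermis Igfbp7 was at 0.52 (aged) and 0.24 (young), with a difference of -1.85 ± 0.31 from HFSCs (limma adjusted p = 0.0563).

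Igfbp3 was at 2.39 and 1.39 in aged and young IFE, against -2.54 and -0.86 in aged and young HFSCs. In total epidermis it was at 1.89 (aged) and 0.97 (young). All 4 epidermal arrays lay above all 8 HFSC arrays, plucked ones included. That split was not tested, and the share of all genes with such a gap was not computed. The fitted difference from HFSCs was 3.59 ± 0.76 in IFE (limma adjusted p = 0.0811) and 3.13 ± 0.76 in total epidermis (limma adjusted p = 0.112). The pairs ran from 2.24 (young) to 4.93 (aged) in IFE, so their spread was wide. With only genes well above background on every array of the fit, the adjusted p values were 0.0269 in IFE and 0.0426 in total epidermis. This filter leaves the Igfbp3 values unchanged.

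The 2 comparisons share the HFSC arrays. In total epidermis, leaving out Igfbp5, 1 of 7 members was called lower (Igfbp6), against 2.02% of 23961 genes called lower (1.87% higher, 3.89% in either direction). The groups of 5 of these 7 members did not overlap here, beside 48% of genes. Igf1, Igf1r and Igfbp2 passed in neither. Igfbp2, a binding protein also acting at cell surface integrins, was at -2.06 and -2.19 in aged and young IFE, against -2.18 and -1.54 in aged and young HFSCs. Its 95% intervals for IFE minus HFSC ran from -1.20 to 0.67, and those of Igf1 from -1.38 to 0.94. Its second probe was not well above background on any array. Population and slide column cannot be told apart, since each population lay in 1 column of the slide.

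**Figure D2:**
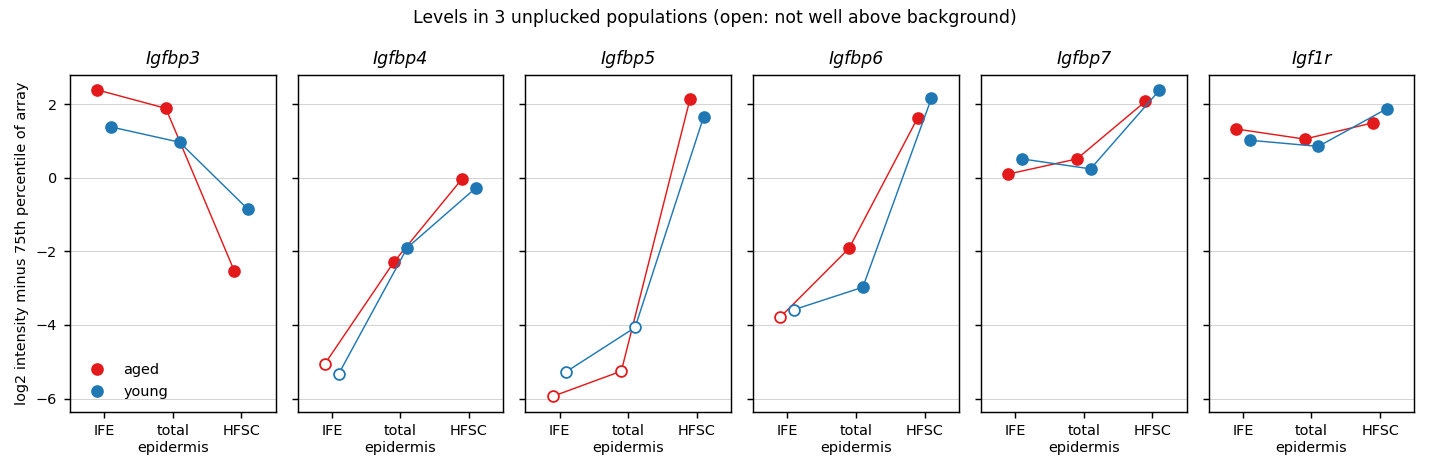
Levels of 6 members in IFE, total epidermis and HFSCs without plucking (x axis), of aged and young mice (y axis, log2 intensity minus the 75th percentile of the array; lines join the arrays of 1 age, open points are not well above background). Igfbp4, Igfbp5, Igfbp6 and Igfbp7 are highest in HFSCs at both ages and Igfbp3 is lowest there.

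Some marker lists differed between the same arrays, and others had no gene called. In IFE 0 of 4 smooth muscle and pericyte, 0 of 6 Langerhans and myeloid and 0 of 2 endothelial markers tested were called. Their medians were 0.08, 0.27 and -1.57, beside 0.09 over all genes. The 8 fibroblast markers summed, on the linear scale relative to the 75th percentile, to between 0.67 and 1.19 in the 4 epidermal arrays, against 21.7 to 48.1 in the 8 HFSC arrays. The sum came mostly from Fbln1, a matrix gene (3.64 to 5.32 in HFSCs), and Col1a2. Of 4 tested markers, Fbln1, Col1a2 and Col1a1 were called lower in IFE and in total epidermis, beside 2.64% and 2.02% of genes. Col1a1 was well above background on no epidermal array, so it entered both tests through HFSCs alone and had to differ. Lum, Pdgfra and Pdgfrb were well above background on no array, and Dcn on 3 of the 12. The 7 bulge stem cell markers summed to between 74.7 and 88.3 in the epidermal arrays and 269.8 to 547 in the HFSC arrays. The epidermal sum came mostly from Krt15, at 6.02 to 6.36 there and 5.80 to 6.97 in HFSCs. The 6 T cell markers, all well above background in total epidermis, summed to 15.9 (aged) and 9.05 (young) there, against 0.81 to 3.21 in the HFSC arrays. In IFE they summed to 6.96 (aged) and 7.52 (young), mostly from Thy1 (levels 2.52 and 2.74), and Cd3g, Cd3d and Cd2 were not well above background there. Their part in the result was not tested, and in bulk samples fewer cells of a type and less RNA per cell cannot be told apart.

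Over all 23961 genes, 2.64% were called lower in IFE and 2.1% higher. Further along the pathway, 4 of 42 tested genes of 48 on the lists were called lower in IFE and 0 higher. Among them were Sesn3 (-2.15 ± 0.29, limma adjusted p = 0.0321), Sesn1 (-1.75 ± 0.28, 0.0449) and Pik3r1 (-2.20 ± 0.35, 0.0466), a regulatory subunit of PI3K. Sestrins are stress-induced inhibitors of mTORC1. The median over the 42 was -0.24, beside 0.09 over all genes. In total epidermis 0 of 42 passed by limma, with 11 at an unadjusted p under 0.05, beside 20.8% of all genes; Sesn3 (-1.78) had an adjusted p of 0.0517 and Pik3r1 (-2.01) one of 0.0601.

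Within HFSCs, Igfbp3, Igfbp5 and Igfbp6 were lower in plucked than in unplucked cells in 4 of 4 pairs, and Igfbp4 and Igfbp7 were higher in 4 of 4, but 0 of 8 tested members passed the adjusted threshold in limma's test over 4 pairs. At an unadjusted p under 0.05 there were 4, beside 17.6% of all genes. How many of all genes had the same sign in 4 of 4 pairs was not counted, here or for the 4 populations below. At the adjusted threshold the background was 127 of 25428 genes (0.499%) called, 100 of them higher (0.393%) and 27 lower (0.106%). With any 1 pair left out, 0 genes were called. Mouse type was a term of the fit, so an array without its partner adds nothing to the difference. The alternative that follows therefore rests on the aged and young pairs alone, and its differences are those given below within slide 1. Without the unplucked cKO and control arrays, an alternative added after seeing the data, the difference was -2.64 for Igfbp5, -2.13 for Igfbp6, -1.43 for Igfbp3 and 0.87 for Igfbp4, and 0 of 24580 genes were called.

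Igfbp5 was at -1.23, -0.25, 0.16 and -0.63 in plucked aged, young, cKO and control HFSCs, against 2.14, 1.66, 2.35 and 1.48 in the unplucked ones. The groups did not overlap, and the fitted difference was -2.40 ± 0.33 (limma adjusted p = 0.0649, lower in 4 of 4 pairs), a 5.26-fold difference. Within slide 1 it was -2.64 and within slide 2 -2.15. It passed with the normexp and quantile alternative (-1.89, limma adjusted p = 0.0219), with only genes well above background on every array (0.0217) and with the mean over probes (0.0496). The filter and the mean over probes leave its own values and difference unchanged, and change only the other genes in the fit.

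Igfbp6 was at 0.41, -0.88, -1.31 and -1.82 in plucked aged, young, cKO and control HFSCs, against 1.63, 2.17, 0.50 and 0.40 in the unplucked ones. The aged plucked array overlapped the range of the unplucked arrays, but every plucked array was below its own partner (-2.07 ± 0.36, limma adjusted p = 0.0877). Within slide 1 the difference was -2.13 and within slide 2 -2.01. It too passed with the normexp and quantile alternative (0.0348) and with the stricter filter (0.0321), which leaves its values unchanged.

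Igfbp3 was at -3.59, -2.66, -3.46 and -2.37 in plucked aged, young, cKO and control HFSCs, against -2.54, -0.86, -1.11 and -0.78 in the unplucked ones (-1.70 ± 0.30, limma adjusted p = 0.0877). With the probe used, every plucked array was below its unplucked partner, by 2.08-fold in aged to 5.10-fold in cKO HFSCs. Within slides it was -1.43 (slide 1) and -1.97 (slide 2), and with the stricter filter its adjusted p was 0.0321.

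Igfbp4 was at 0.94, 0.51, 1.31 and 1.16 in plucked aged, young, cKO and control HFSCs, against -0.02, -0.27, 0.10 and -0.68 in the unplucked ones (1.20 ± 0.28, limma adjusted p = 0.135). Its groups did not overlap, and within slides it was 0.87 and 1.52. It passed with the normexp and quantile alternative only (0.92, limma adjusted p = 0.0434). Igfbp7 was at 2.57, 3.14, 2.78 and 2.61 in plucked HFSCs of the same order, against 2.08, 2.38, 2.54 and 2.13 in unplucked ones, a difference of 0.49 ± 0.24 (limma adjusted p = 0.355). The groups of 3 of 8 members did not overlap, beside 10.7% of genes.

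The receptor gene Igf1r was lower in 4 of 4 pairs, with a difference of -0.49 ± 0.27 (limma adjusted p = 0.407), and the other 2 tested members had intervals that include 0. For Igf1 the 95% interval of plucked minus unplucked ran from -1.33 to 0.54, and for Igfbp2 from -1.01 to 0.37. Whether plucking acted differently in aged and cKO cells than in young and control cells was tested, and 0 of 25428 genes passed by limma, with 1146 at an unadjusted p under 0.05. All 8 members had limma adjusted p values of at least 0.99879. As for single pairs, 4 members were at least 2-fold apart in aged, 3 in young, 4 in cKO and 4 in control HFSCs, beside 32.5%, 26%, 39.4% and 41.3% of genes. Single pairs have no test.

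**Figure D3:**
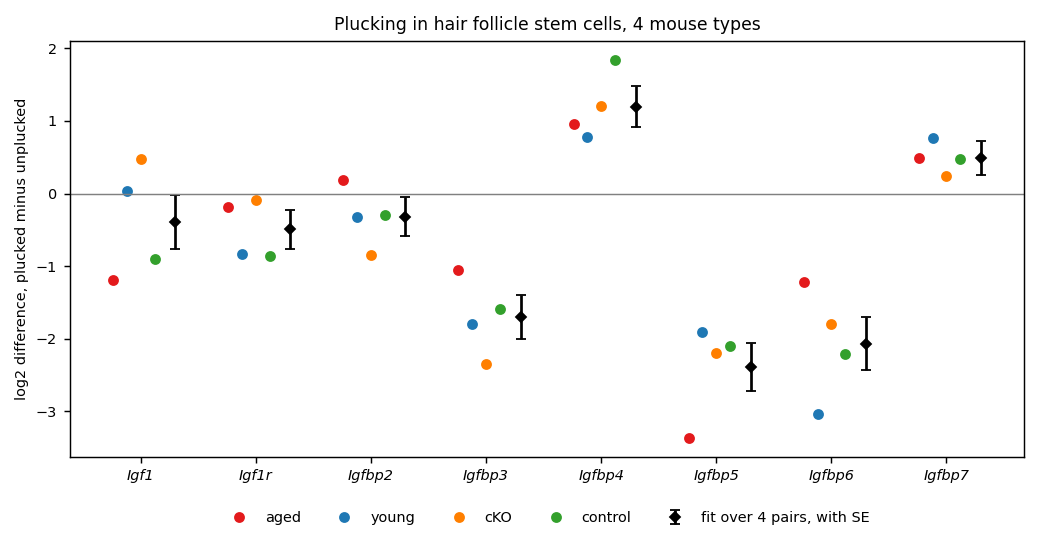
Log2 difference between plucked and unplucked HFSCs of the same mouse type for 8 members (coloured points, 1 pair each; black diamonds, fit over 4 pairs with its standard error). Igfbp3, Igfbp5 and Igfbp6 lie below 0 in all 4 pairs and Igfbp4 and Igfbp7 above it, and none passed the adjusted threshold.

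Cell cycle genes differed between the same arrays. The 5 cycling markers summed to between 28.4 and 56.1 in plucked HFSCs, against 1.14 to 6.50 in unplucked ones, and the bulge markers to between 269.8 and 402 in plucked HFSCs, against 349 to 547. Cd34, used in the sort, was 5.28-fold lower in plucked cells (limma adjusted p = 0.0558), lower in 4 of 4 pairs. The 7 melanocyte markers summed to between 1.58 and 2.45 in plucked HFSCs, against 3.99 to 6.52 in unplucked ones. Mitf, the 1 of 5 tested called lower (-2.84), carried this difference, while Dct (1.59), Mlana (0.95) and Pmel (0.40) had positive differences that did not pass, and the median over the 5 was 0.40. Col1a2 was below its unplucked partner in 4 of 4 pairs, with a difference of -1.90 ± 0.29 (limma adjusted p = 0.0712). Their part in the result was not tested. Of the 44 tested pathway genes 0 passed by limma, with 15 at an unadjusted p under 0.05, beside 17.6% of all genes. The smallest adjusted p values belonged to Tsc2, a repressor of mTORC1 (-2.14, 0.0587), Pik3r1 (-1.50, 0.0759) and Pik3cb (-1.58, 0.12).

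No member passed the test between aged and young cells, nor did any of the genes tested (0%). In HFSCs, 0 of 25428 genes passed by limma and 1227 had an unadjusted p under 0.05. Over 4 populations, 0 of 24821 passed and 2132 had an unadjusted p under 0.05. Igfbp3 was the 1 member of HFSCs at an unadjusted p under 0.05 (-1.30 ± 0.42, limma adjusted p = 0.932). It was at -2.54 and -3.59 in aged unplucked and plucked HFSCs, against -0.86 and -2.66 in young ones. In the epidermis the pairs lay on the other side, at 1.89 and 2.39 in aged total epidermis and IFE, against 0.97 and 1.39 in the young ones. The difference of the age effect, epidermis minus HFSC, was added after seeing the data; it was 2.27 ± 0.46 for Igfbp3 (limma adjusted p = 0.824), and 0 of 24821 genes passed, with 1324 at an unadjusted p under 0.05. Age cannot be told apart from slide row.

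Igf1 was at -0.52, -1.70, -1.41 and -1.24 in aged HFSCs, plucked HFSCs, total epidermis and IFE, against -2.02, -1.98, -1.41 and -1.74 in young ones. It was higher in 4 of 4 populations, in total epidermis by 0.00068 only, with a fitted difference of 0.57 ± 0.30 (limma adjusted p = 0.565), mostly from the unplucked HFSC pair (1.504). Igfbp5 differed by 0.47 and -0.98 in unplucked and plucked HFSCs, and Igfbp6 by -0.53 and 1.29, so the pairs of both genes lay on opposite sides of 0. The groups of 2 of 8 members did not overlap in HFSCs, beside 34.6% of genes, and those of 0 of 8 over the 4 populations, beside 3.13%. Single pairs at least 2-fold apart were 2 of 8 members in unplucked HFSCs (30% of genes), 1 of 8 in plucked HFSCs (20%), 1 of 7 measured in total epidermis and 1 of 5 in IFE (12.1% in both). In the pathway lists, 0 of 44 passed over the 4 populations by limma, with 1 at an unadjusted p under 0.05. The adaptors Grb2 (0.49) and Irs2 (0.41) were higher in 4 of 4 populations, both at an adjusted p of 0.559. In HFSCs alone 0 of 44 passed, with 1 at an unadjusted p under 0.05, Insrr (1.81, limma adjusted p = 0.932), not well above background in either young array. Rptor, a subunit of mTORC1 (-1.18), and Foxo3, a transcription factor that AKT restrains (0.81), followed, both at an adjusted p of 0.932.

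Col17a1 deletion was compared in the cKO and control HFSCs, both treated with tamoxifen and on 1 slide. They lay in different columns of that slide, so cKO and slide column cannot be told apart. Again 0 of 8 members and 0 of 25428 genes (0%) passed by limma, with 1646 genes at an unadjusted p under 0.05 and no member among them. Igfbp5 was at 2.35 and 0.16 in unplucked and plucked cKO HFSCs, against 1.48 and -0.63 in control HFSCs. It was higher in both pairs (0.83 ± 0.47, limma adjusted p = 0.817), with a 95% interval of -0.36 to 2.02. Igfbp3 was at -1.11 and -3.46 in cKO HFSCs, against -0.78 and -2.37 in control HFSCs (-0.70 ± 0.42, limma adjusted p = 0.827), and was lower in both pairs. Of the other members, Igfbp4 differed by 0.47, Igfbp6 by 0.30, Igfbp7 by 0.29, Igfbp2 by 0.20, Igf1 by -0.09 and Igf1r by -0.04. The groups of 0 of 8 members stood apart without overlap, beside 25.3% of genes. In single pairs 0 of 8 members were at least 2-fold apart without plucking (38.5% of genes) and 1 of 8 after it (23.6%). In the pathway lists 0 of 44 passed by limma, with 5 at an unadjusted p under 0.05; Insrr, an orphan receptor of the insulin receptor family, was at means of -0.51 in cKO and -3.44 in control HFSCs (2.93 ± 0.40, limma adjusted p = 0.412). Igf2bp3, which binds Igf2 mRNA, was not well above background on either cKO array (-1.55, limma adjusted p = 0.691), and Rptor had a difference of -1.35 (limma adjusted p = 0.74).

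**Figure D4:**
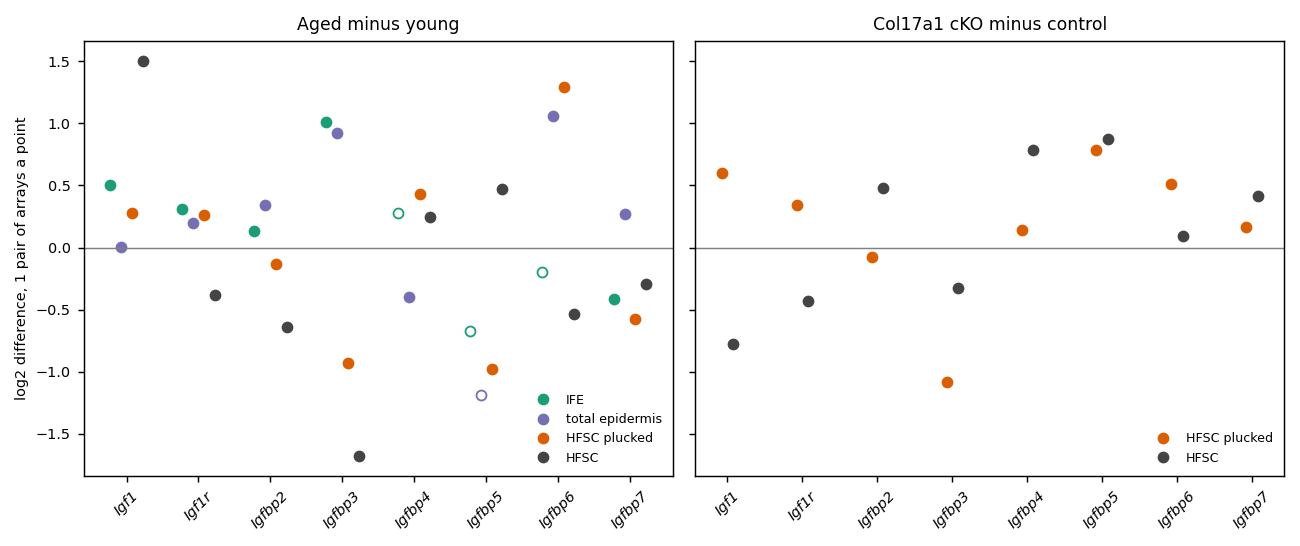
Log2 differences of single pairs of arrays, aged minus young in 4 populations (left) and Col17a1 cKO minus control in HFSCs (right), for 8 members; open points are pairs with neither array well above background. Igfbp3 lies below 0 in both HFSC pairs of aged minus young and above it in total epidermis and IFE, and no member passed a test.

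Control and young HFSCs lay on different slides scanned on different days, and the mice were 12 and 8 weeks old. Tamoxifen, age, scan day and slide therefore cannot be told apart. Igfbp6 was at 0.40 and -1.82 in unplucked and plucked control HFSCs, against 2.17 and -0.88 in young HFSCs. Igf1r was at 2.51 and 1.65 in control HFSCs, against 1.88 and 1.05 in young HFSCs. Igfbp6 was lower and Igf1r higher on slide 2 in both pairs. This touches no tested contrast above, since plucking, age and cKO were each compared within a slide. The ranges given over all 8 HFSC arrays span both slides.

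How the members varied together is a description over 12 arrays that share populations. Igfbp5 and Igfbp6 had a Pearson r of 0.877 over 12 arrays and 0.656 over the 8 HFSC arrays. Igfbp4 and Igfbp7 had 0.887 and 0.635. Igfbp4 and Igfbp5 had 0.783 over 12 arrays but -0.766 over the 8 HFSC arrays, where plucked cells had higher Igfbp4 and lower Igfbp5 levels in 4 of 4 pairs. Igfbp3 and Igfbp4 had -0.897 over 12 and -0.830 over 8 arrays.

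Among the 22331 genes well above background on at least 6 arrays, those with the highest r to each member over the 12 arrays were taken. Igfbp5 was closest to an unnamed probe (0.983), Igdcc4 (0.979) and App (0.976). Igfbp7 was closest to Samd5 (0.983), Cald1 (0.977) and Pi15 (0.976). Igfbp4 was closest to Arhgap9 (0.978), the hedgehog target Gli1 (0.975) and an unnamed probe (0.968). Igfbp6 was closest to Pdzrn4 (0.970), S100a4 (0.967) and Krt24 (0.957). Igfbp3 was closest to Serpinb2 (0.969), Slitrk6 (0.962) and Il33 (0.956). Igf1r was closest to Ddx5 (0.964), Ergic3 (0.961) and Dsel (0.954), and Igfbp2 to Atl2 (0.949), Ndufs7 (0.919) and Mcrip1 (0.903). Igf1 was closest to 2 unnamed transcripts (0.958 and 0.955) and Psg28 (0.951).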

How the data were processed

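Processed spot intensities, deposited by the authors on a linear scale, came from Agilent Feature Extraction 10.7.3.1 (GE1_107_Sep09), per the file headers. Per the labels' protocols, 1 to 10 ng of RNA were amplified before Cy3 labelling. The authors' deposited log2 values (55821 probes) were an alternative. Their making is not given in the sources used here, but they followed these values centred per probe (r of at least 0.99988, column medians -0.20 to 0.16). Control spots and outliers (129 to 269 per array) were left out; none was saturated. Log2 intensity minus the 75th percentile was averaged per probe, and 28026 of 55681 probes were named by accession from RefSeq. limma 3.58.1 in R 4.3.3 (data.table, version 1.17.8) fitted additive models to all genes well above background on at least 2 arrays, with Benjamini-Hochberg adjustment, and was tested on simulated data; figures used matplotlib 3.10.9 in Python 3.11.15. All members are named; of the pathway lists, every gene called and the 3 of smallest p; and the 3 genes most like each member. A pathway gene and a probe sequence that these rules would name are not reported here. The members and lists were chosen with earlier results of these data known. The number of arrays limits the precision. Alternatives were background correction with scaling, other scalings, filters, the mean over probes, left-out pairs, and slides apart.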

Additional observations from a re-analysis of the deposited data

Results flagged for a closer look

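Igfbp3 stood out because its aged and young arrays differed in opposite directions in 2 populations. Aged minus young was -1.68 in unplucked HFSCs and 1.01 in IFE, on the log2 scale, each from 1 pair of arrays with no test of its own. The test of the difference between epidermis and HFSCs, added after seeing the data, gave 2.27 ± 0.46 (limma adjusted p = 0.824), which did not pass.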

How the results depend on the processing

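No paired analysis was possible because each group holds replicate 1 alone, in the sense of a block on replicate number; the fits instead match arrays by mouse type, age or population. Of 415 tested values for the members under alternatives, 386 kept their direction and side of the threshold, and 12 changed sign. Leaving out 1 of 2 pairs left a single pair with no test, and 54 of 64 such values kept their sign. The 10 others, none from a called result, were for cKO Igf1 (0.60), Igf1r (0.35) and Igfbp2 (-0.0797), for aged HFSCs Igfbp5 (0.47), Igfbp6 (-0.53) and Igf1r (0.26), for IFE Igf1 (0.28) and Igfbp2 (0.12), and for total epidermis Igf1 (0.61) and Igfbp2 (0.17). In the counts that follow Igfbp5 is included for IFE and total epidermis. Members called for plucking, 0 as reported, were 3 with normexp and quantile scaling, 3 with genes well above background on every array, and 1 with the mean over probes. For IFE they were 2 in place of 4 under that filter, which takes Igfbp4, Igfbp5 and Igfbp6 out of the test. For total epidermis they were 4 in place of 2 with normexp and quantile scaling, and 4 with the mean over probes. Among the members, the mean over probes changes the values of Igf1, Igfbp2 and Igfbp3 only. The filter changes the values of no member it keeps, so other changes in calls come from the other genes in the fit. Genes called over all ranged from 0 to 1120 for plucking (127 as reported), with 0 when any 1 pair was left out, from 605 to 1499 for IFE (1134) and from 327 to 1421 for total epidermis (933). They were 0 under every alternative run for age and cKO. Tested values that changed sign passed no test. With quantile scaling Igf1r was 0.0237 for cKO and 0.0392 for aged HFSCs, and with normexp and quantile scaling 0.0741 for aged HFSCs. With the mean over probes Igfbp2 was -0.28 for cKO, 0.12 for IFE and 0.86 for total epidermis. Over 4 populations, aged minus young was 0.12 for Igfbp3 with normexp and quantile scaling, and -0.0835 for Igf1r and -0.0415 for Igfbp4 with median scaling. Leaving out 1 pair gave, on that comparison, -0.21 to 0.12 for Igfbp2 and -0.56 to 0.33 for Igfbp3, with a positive sign for both without the unplucked HFSC pair and for Igfbp3 (0.0829) without the plucked HFSC pair. Median scaling moved the median of all genes to -0.21 for aged HFSCs (0.03 as reported), -0.15 over 4 populations (0.03), -0.13 for cKO (-0.01) and -0.12 for total epidermis (0.07). The cause of these changes was not tested otherwise. Dim signal limits Igf2 on every array, Igfbp4, Igfbp5 and Igfbp6 in IFE, and Igfbp5 in total epidermis to bounds.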
